A study of Arabidopsis thaliana with 12 samples.

Results

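UDP-glycosyltransferases (UGTs) are enzymes that move a sugar from a nucleotide sugar, usually UDP-glucose, onto small molecules such as flavonoids, monolignols, hormones and defence compounds. The sugar makes the acceptor more soluble and usually less active, and often marks it for storage in the vacuole. In Arabidopsis the enzymes form a large family in which the number after UGT names the family and the letter that follows names the subfamily, and many of the genes lie side by side on the chromosomes. The UGT genes described here are all those for which the array annotation gives 1 gene symbol that begins with UGT and a digit. This rule took 47 probe sets, 1 for each of 47 genes, out of 22810 probe sets on the array and 13264 nuclear genes that the annotation names. No filter on level was used to choose them. The 47 genes fall into 11 families and 21 subfamilies, and include 47 of the 58 genes whose RefSeq symbol begins in the same way. A further 3 probe sets that name a UGT gene together with another gene (UGT73B2 with UGT73B3, and UGT89B1 and UGT71D1 each with a neighbour) were left out, and the other UGT genes were not analysed here.

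Whole seedlings of Arabidopsis thaliana, ecotype Col-0, wild type with the reporter CCR2::LUCIFERASE, were grown on medium with sucrose and entrained for 7 d in cycles of 12-h light and 12-h dark and then moved to constant white light. All 12 samples share this genotype and treatment and differ only in the time of harvest, which ran from 24 h to 68 h in constant light at intervals of 4 h. RNA from each harvest was hybridized to 1 Affymetrix ATH1 array, so there was no replicate of any time, and errors come from the scatter of the 12 arrays around a fitted curve. The study asked which transcripts keep a daily rhythm when the light no longer changes. Circadian time (CT) counts hours from subjective dawn, which fell at the harvests of 24 h and 48 h, and CT12 to CT24 is the subjective night. The 6 harvests from 24 h to 44 h are called the first cycle and the 6 from 48 h to 68 h the second.

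The deposited values are linear intensities with near-equal levels between arrays, the array medians being 149.9 to 154. Rhythm was present in the clock gene GI, with a peak at CT10.5 and a log2 amplitude of 0.61 (standard error 0.08). Both shoot and root transcripts were on the arrays. Mean intensities were 345 to 9976 for 4 leaf genes and 205 to 10057 for 3 root genes. All 4 leaf genes but none of the root genes passed the test of rhythm described next, which 4.66% of all genes passed. Each root gene still had its highest value at CT4 in both cycles. The time of the highest value repeated in 23.1% of all genes. In whole seedlings, fewer cells of a type and less RNA per cell cannot be told apart. The arrays were scanned on 3 days, with 24 h and 32 to 52 h on the first, 56 to 68 h on the second and 28 h on the third, so scan day and time overlap in part. A curve made of a straight trend and a wave of 24 h (cosine plus sine) was fitted in limma to the log2 intensities of each of the 13264 genes. A gene is called rhythmic where the moderated F-test of the wave gave an adjusted p below 0.05 over all 13264 genes. Amplitude is how far the wave rises above its own mean on the log2 scale, and the peak-to-trough ratio is the linear fold between its top and its bottom.

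Of the 47 UGT genes, 8 were rhythmic, or 17.0%, where 4.66% of all 13264 genes were. They were UGT78D1, UGT78D2, UGT72E1, UGT84A1 and UGT84A3, whose products act on flavonoids and phenylpropanoids, UGT74D1, whose product acts on auxin, and UGT85A3 and UGT88A1. The remaining 39 genes did not pass the test. Of the 47 genes, 40 lay in the upper 69% of named genes by mean log2 intensity, and 7 of these 40 were rhythmic, where 6.13% of all genes above that level were. Of the 7 genes below it 1 was rhythmic, where 1.39% of all genes below it were. An unadjusted p below 0.05 was reached by 21 of the 47 genes (44.7%), against 20.7% of all genes. The median log2 amplitude was 0.12 over the 47 genes and 0.10 over all genes, and the median range of log2 intensity over the 12 times was 0.50 and 0.47. A fitted peak-to-trough ratio of at least 1.5 was found in 6 of the 47 genes, where 4.04% of all genes had one. The count of rhythmic UGT genes was 13 when only the upper 69% of genes by level were fitted (11% of all those genes), 6 with scan day as a block (3.08%), 5 at an adjusted p below 0.01 (1.81%), 3 with a free period (2.16%) and 2 from the arrays of scan day 1 alone (0.686%). UGT78D1 and UGT78D2 passed in each of these. For the free period, the lowest p from 19 to 29 h was multiplied by the number of periods tried, then adjusted over genes. A call can be lost through this step alone.

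**Figure D1:**
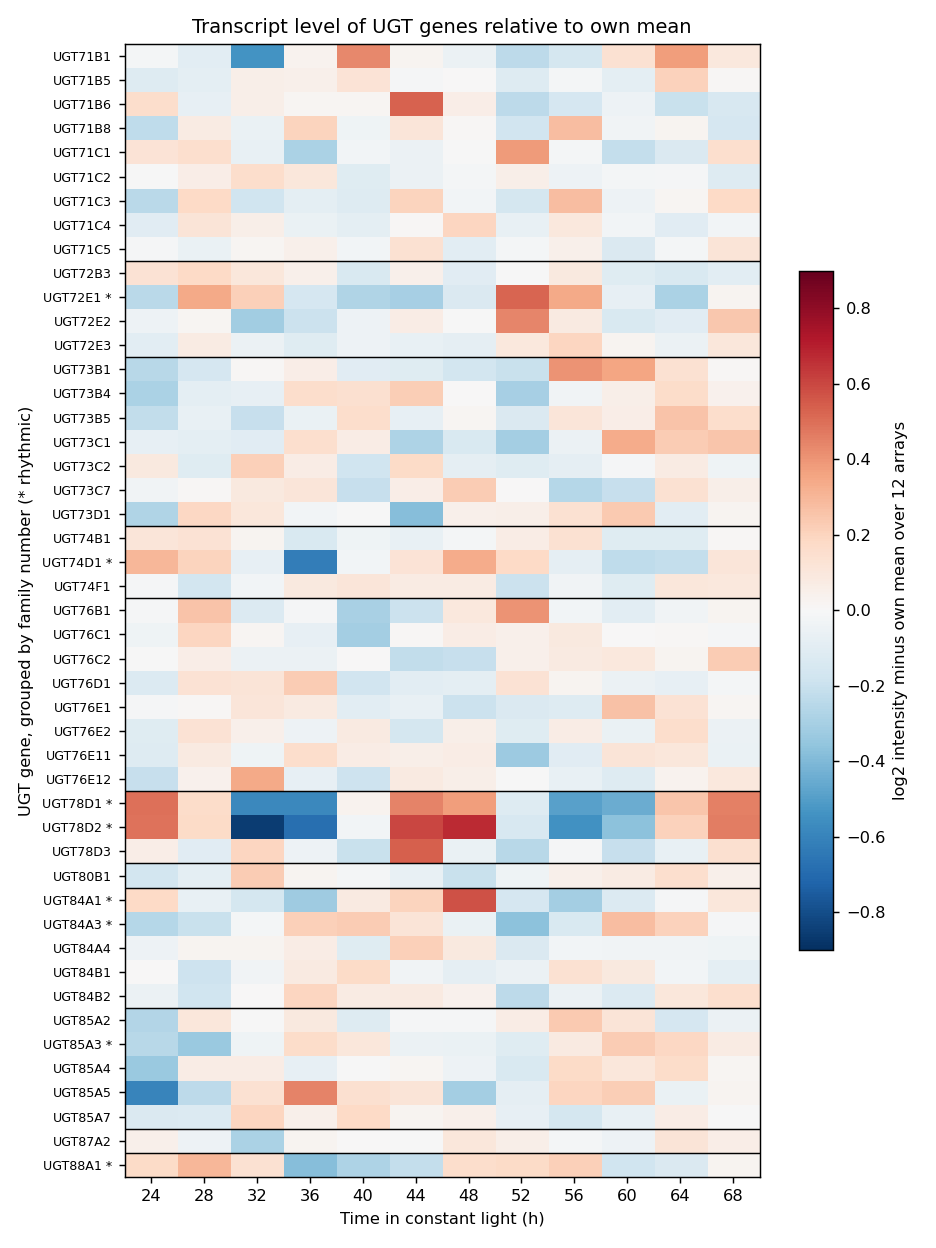
Log2 intensity of each of the 47 UGT genes minus its own mean over the 12 arrays, by time in constant light. Rows are grouped by family number, with lines between families, and an asterisk marks the 8 rhythmic genes. UGT78D1 and UGT78D2 are high at 24 h, 44 to 48 h and 68 h and low at 32 to 36 h and 56 to 60 h.

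UGT78D2 and UGT78D1 had the largest amplitudes in the family, and both peaked late in the subjective night. UGT78D2 is the flavonoid 3-O-glucosyltransferase, which glycosylates both anthocyanidins and flavonols. Its intensities were 812, 651, 320.3, 361, 569 and 876 from 24 h to 44 h and 921, 524, 397, 448, 669 and 795 from 48 h to 68 h. Values were high at CT20 and CT0 and low at CT8 and CT12 in both cycles. The fit gave a log2 amplitude of 0.67 (standard error 0.06), a fitted peak-to-trough ratio of 2.55 and a peak at CT21.9 (standard error 0.390 h, adjusted p = 0.000431 from limma). UGT78D1 transfers rhamnose to the same position of flavonols. Its intensities were 561, 445, 265, 265, 405 and 539.6 in the first cycle and 516, 366, 283, 292, 471 and 544 in the second. Its 3 lowest values came at 32, 36 and 56 h, as did those of UGT78D2. UGT78D1 had a log2 amplitude of 0.56 (standard error 0.05), a fitted peak-to-trough ratio of 2.18 and a peak at CT21.7 (standard error 0.375 h, adjusted p = 0.000431 from limma). The peak times of the pair differed by 0.151 h (standard error 0.541 h, taken from the errors of both as if independent, though both were on the same arrays). The log2 difference between UGT78D2 and UGT78D1 had a span of 0.56 over the 12 times, against ranges of 1.52 for UGT78D2 and 1.08 for UGT78D1. UGT78D2 and UGT78D1 do not lie together, the first being on chromosome 5 and the second on chromosome 1.

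UGT78D3, which transfers arabinose to flavonols and lies near UGT78D2 on chromosome 5, did not pass the test of rhythm. Its intensities ran from 38.3 to 66.0 with a median of 43.8. Its highest value was at 44 h, the time at which UGT78D2 was also high, and the value at the same point of the second cycle, 68 h, was 50.3. Its adjusted p was 0.597, with a log2 amplitude of 0.12 (standard error 0.08).

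**Figure D2:**
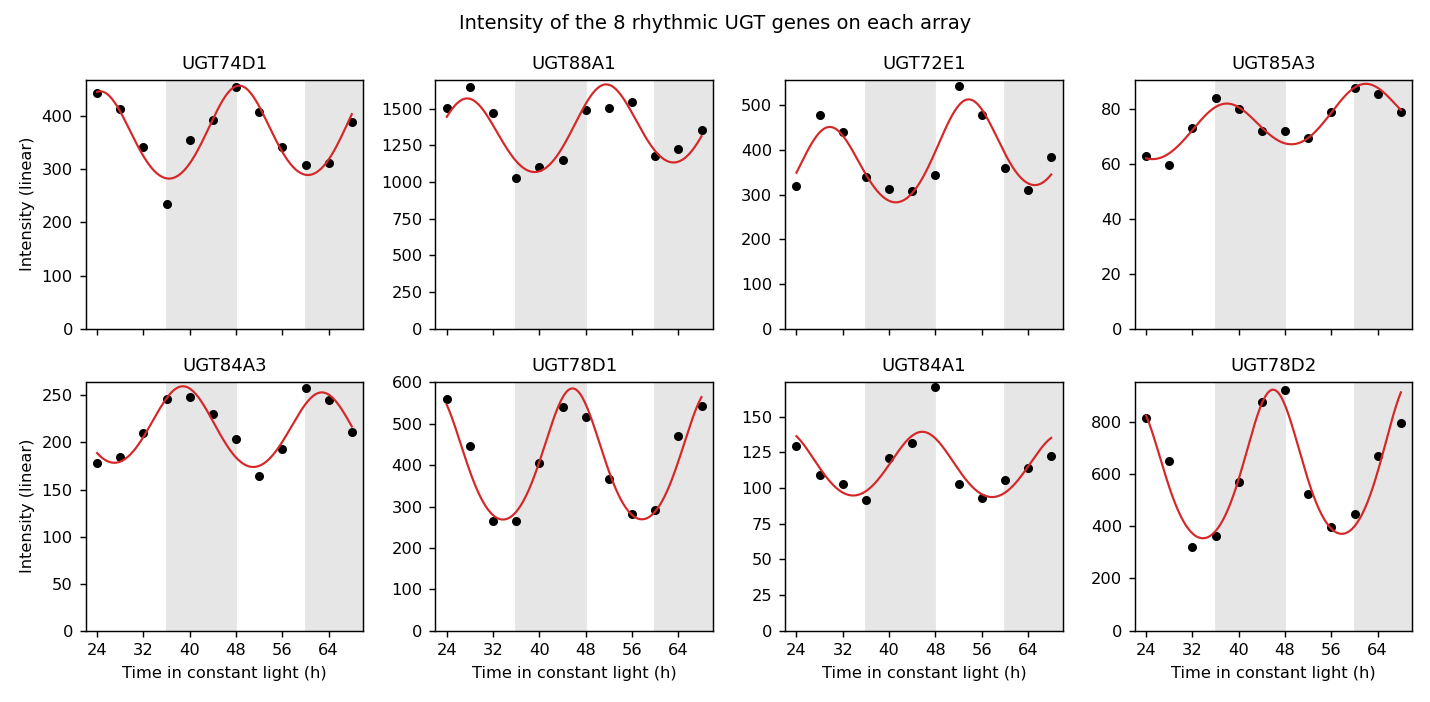
Linear intensity of the 8 rhythmic UGT genes on each of the 12 arrays (points) against time in constant light, with the fitted 24-h curve and trend (line) and the subjective night shaded. Panels run in order of fitted peak time, from UGT74D1 near subjective dawn to UGT78D2 late in the subjective night, and UGT78D2 spans 320.3 to 921.

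The acceptors of UGT78D1 and UGT78D2 come from the flavonoid pathway, and 2 of 14 listed flavonoid and anthocyanin genes were among the 13264 genes tested. Both were rhythmic. DFR, dihydroflavonol reductase of anthocyanin synthesis, ran from 285 to 1919 in intensity and peaked at CT22.2 (standard error 0.563 h) with a ratio of 4.08. AT5MAT encodes a malonyltransferase that modifies the glucose of anthocyanins. Its intensities were 139.7, 144, 75.9, 77.3, 145 and 205 in the first cycle and 234, 124, 90.3, 118, 194 and 209.8 in the second. It was lowest at CT8 in both cycles and highest at CT20 in the first and CT0 in the second. It peaked at CT21.5 (standard error 0.534 h, adjusted p = 0.00254 from limma), with a log2 amplitude of 0.65 and a ratio of 2.47. The fitted peaks of DFR, AT5MAT, UGT78D1 and UGT78D2 lay between CT21.5 and CT22.2. Of the 618 rhythmic genes among all those tested, 124 (20.1%) peaked between CT20 and CT24. All 4 transcripts were measured on the same 12 arrays, so likeness between them includes any difference that an array gives to all. In the phenylpropanoid and sinapate list, 2 of 13 genes had a probe set named by the annotation and were tested, and neither HCT nor ALDH2C4 (REF1), an enzyme of ferulate and sinapate synthesis, passed (adjusted p = 0.468 and 0.892 from limma). The only gene of nucleotide sugar supply tested among 21 listed was USP, a UDP-sugar pyrophosphorylase, which did not pass (adjusted p = 0.409). The 13 listed genes of glucosinolate synthesis and the 5 of salicylate synthesis and turnover were not analysed here.

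**Figure D3:**
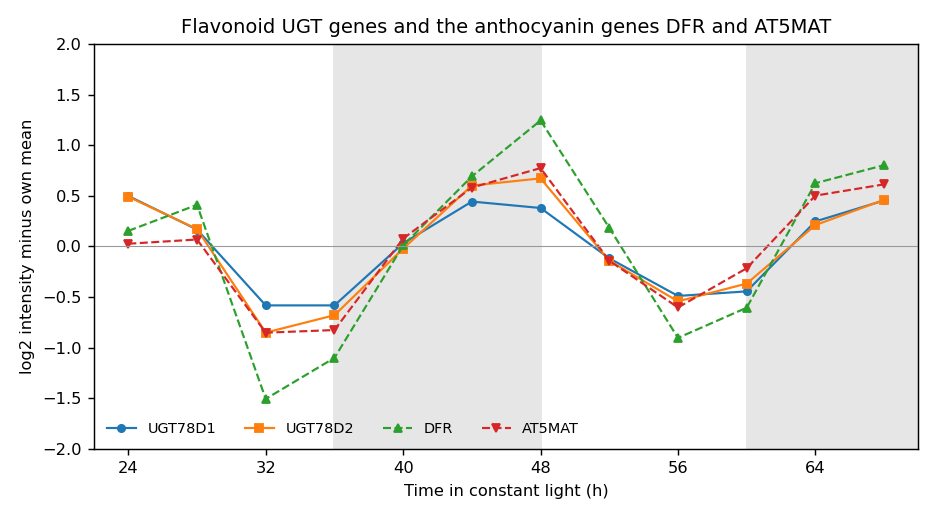
Log2 intensity minus own mean of UGT78D1, UGT78D2, DFR and AT5MAT against time in constant light, 1 point per array, with the subjective night shaded. All 4 are lowest at 32 or 36 h in the first cycle and at 56 h in the second, and DFR has the widest swing, from 285 to 1919 in linear intensity.

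Subfamily UGT84A contains enzymes that form glucose esters of hydroxycinnamates such as sinapate, and 3 of its genes, UGT84A1, UGT84A3 and UGT84A4, lie close together on chromosome 4. UGT84A1 and UGT84A3 were rhythmic with peaks at different times, and UGT84A4 did not pass. UGT84A1 had intensities of 129.8, 109, 103, 91.7, 121 and 132 from 24 h to 44 h and 171, 103, 93.0, 105, 114 and 123 from 48 h to 68 h. It was highest around subjective dawn and lowest at CT12 in the first cycle and CT8 in the second, and its value at 48 h lay above all others. The fitted wave had a log2 amplitude of 0.28 (standard error 0.06), a fitted peak-to-trough ratio of 1.48 and a peak at CT21.8 (standard error 0.886 h, adjusted p = 0.0447 from limma). UGT84A3 had intensities of 178, 185, 209.9, 247, 248 and 229.9 in the first cycle and 204, 164, 193, 258, 245 and 211 in the second. It was high at CT12 and CT16 in both cycles, and lowest at CT0 in the first and at CT4 in the second. UGT84A3 had a log2 amplitude of 0.28 (standard error 0.04), a fitted peak-to-trough ratio of 1.47 and a peak at CT14.9 (standard error 0.547 h, adjusted p = 0.00816 from limma). It did not pass with a free period (adjusted p = 0.0616). Its best period was 24 h, so the wave was the same and only the p was raised for the periods tried. The fitted peak of UGT84A1 thus came 6.86 h after that of UGT84A3 (standard error 1.04 h, taken from the errors of both as if independent, though both were on the same arrays). This pair was singled out after its values were seen, and the difference was not tested. Their log2 difference spanned 1.17, against ranges of 0.90 for UGT84A1 and 0.65 for UGT84A3. UGT84A4 stayed between 154 and 196, with a log2 amplitude of 0.04 (adjusted p = 0.851 from limma). The UGT84A1 call was close to the threshold. Without any one of 10 of the 12 times it was lost (highest adjusted p = 0.124), as it was with scan day as a block (adjusted p = 0.133). UGT84B1, whose product glucosylates auxin, and UGT84B2, which lie together on chromosome 2, did not pass (adjusted p = 0.327 and 0.208).

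Enzymes of subfamily UGT72E glucosylate monolignols, the precursors of lignin, and related aldehydes. UGT72E1 had intensities of 319.8, 479, 439.5, 341, 313 and 308 from 24 h to 44 h and 345, 544, 479, 359.9, 310.2 and 384 from 48 h to 68 h. It was highest at CT4 and next highest at CT8 in both cycles, and all its other values were below those at CT4 and CT8. This gave a log2 amplitude of 0.38 (standard error 0.06), a fitted peak-to-trough ratio of 1.70 and a peak at CT5.45 (standard error 0.543 h, adjusted p = 0.00737 from limma). UGT72E2, whose product glucosylates coniferyl alcohol, ran from 733 to 1238 with a median of 895. Its highest value was at CT20 in the first cycle and at CT4 in the second, and it did not pass (log2 amplitude 0.19, standard error 0.06, adjusted p = 0.182). UGT72E3 stayed between 147 and 181 and did not pass (adjusted p = 0.361), nor did UGT72B3 (adjusted p = 0.483). At 52 h UGT72E1 and UGT72E2 both had the highest of their 12 values.

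**Figure D4:**
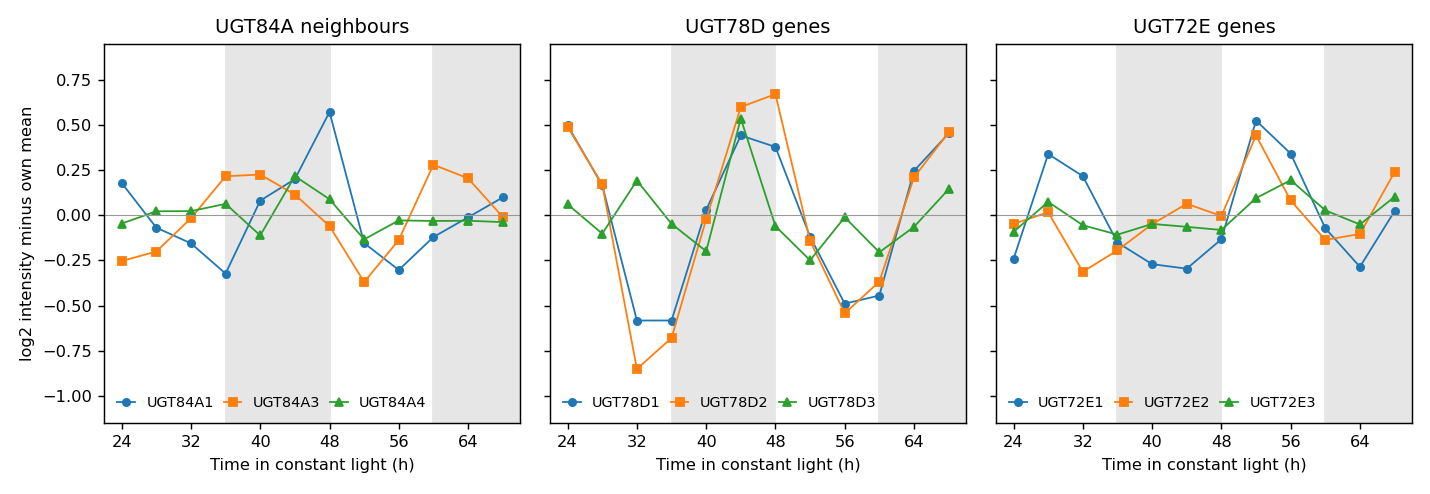
Log2 intensity minus own mean against time in constant light for 3 sets of close relatives, 1 point per array, with the subjective night shaded. UGT84A1 and UGT84A3 run out of step and UGT84A4 stays near its mean, UGT78D1 and UGT78D2 overlap, and UGT72E1 peaks at 28 h and 52 h.

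UGT74D1, whose product forms glucose esters of auxins, was highest at subjective dawn in both cycles. Its intensities were 443, 413, 342, 235, 355 and 392 from 24 h to 44 h and 455, 408, 341, 307, 311 and 389.7 from 48 h to 68 h. The lowest value in each cycle was at CT12. UGT74D1 had a log2 amplitude of 0.34 (standard error 0.05), a fitted peak-to-trough ratio of 1.60 and a peak at CT0.481 (standard error 0.603 h, adjusted p = 0.00781 from limma). With a free period it did not pass (adjusted p = 0.0593). The other 2 genes of family UGT74 had smaller amplitudes. UGT74B1, which glucosylates thiohydroximates in glucosinolate synthesis, ran from 1023 to 1234 (log2 amplitude 0.10, adjusted p = 0.259). UGT74F1, one of the enzymes that glucosylate salicylic acid, ran from 102 to 126, with the highest value at CT16 in both cycles, and did not pass (log2 amplitude 0.12, adjusted p = 0.197).

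UGT88A1, the only gene of family UGT88 among the 47, was high through most of the subjective day. Its intensities were 1504, 1646, 1468, 1027, 1100.4 and 1153 in the first cycle and 1492, 1507, 1549, 1179, 1224 and 1357 in the second. The values at CT0, CT4 and CT8 were above all those at CT12, CT16 and CT20. UGT88A1 had a log2 amplitude of 0.30 (standard error 0.05), a fitted peak-to-trough ratio of 1.51 and a peak at CT3.35 (standard error 0.577 h, adjusted p = 0.0116 from limma). It did not pass with a free period (adjusted p = 0.0899), where its best period was again 24 h and only the p was raised.

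UGT85A3 belongs to a run of 4 UGT85A genes on chromosome 1 with UGT85A7, UGT85A2 and UGT85A5. Its intensities were 62.8, 59.4, 72.9, 83.9, 80.0 and 71.9 from 24 h to 44 h and 71.7, 69.4, 78.9, 87.6, 85.2 and 78.8 from 48 h to 68 h. Its mean of 74.7 was below 80.3, the mean intensity above which the upper 69% of genes lie. It was highest at CT12 in both cycles, and all values from 56 h on were above those at 24 h to 32 h. The curve had a log2 amplitude of 0.17 (standard error 0.03), a fitted peak-to-trough ratio of 1.27 and a peak at CT13.5 (standard error 0.753 h, adjusted p = 0.0350 from limma). The call was lost without any one of 11 of the 12 times, 48 h being the exception (highest adjusted p = 0.133), and with scan day as a block (adjusted p = 0.0874). UGT85A5, its neighbour, had intensities of 143, 184, 238, 295, 239 and 235 in the first cycle and 175, 205, 248, 252, 208 and 220.0 in the second. It too was highest at CT12 in both cycles and lowest at CT0. It missed the threshold (log2 amplitude 0.30, standard error 0.07, adjusted p = 0.0585) with a fitted peak at CT12.2, and it was called when only the upper 69% of genes by level were tested (adjusted p = 0.0182). UGT85A2 and UGT85A7 did not pass (adjusted p = 0.175 and 0.439), nor did UGT85A4, which lies elsewhere on chromosome 1 (adjusted p = 0.471).

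The rhythmic UGT genes did not share a peak time. Their fitted peaks fell at CT0.481 for UGT74D1, CT3.35 for UGT88A1, CT5.45 for UGT72E1, CT13.5 for UGT85A3, CT14.9 for UGT84A3, CT21.7 for UGT78D1, CT21.8 for UGT84A1 and CT21.9 for UGT78D2. The last 3 differed by less than their standard errors. In all, 3 of the 8 peaked in the subjective day and 5 in the subjective night, where 345 of the 618 rhythmic genes of the array peaked in the day and 273 in the night. None peaked between CT8 and CT12 or between CT16 and CT20, windows that held 100 and 67 of the 618 (16.2% and 10.8%). With 8 genes, an empty window says little. The time of the highest value repeated from the first cycle to the second in 15 of the 47 UGT genes (31.9%), where it did in 23.1% of all genes, and among the 8 rhythmic genes it did so in UGT72E1, UGT74D1 and UGT85A3. In the other 5 the highest values of the cycles were 4 h apart in circadian time. The period that fitted best between 19 and 29 h was 22 h for UGT78D1, 23 h for UGT78D2, UGT72E1 and UGT85A3, 24 h for UGT84A3 and UGT88A1, and 25 h for UGT74D1 and UGT84A1.

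**Figure D5:**
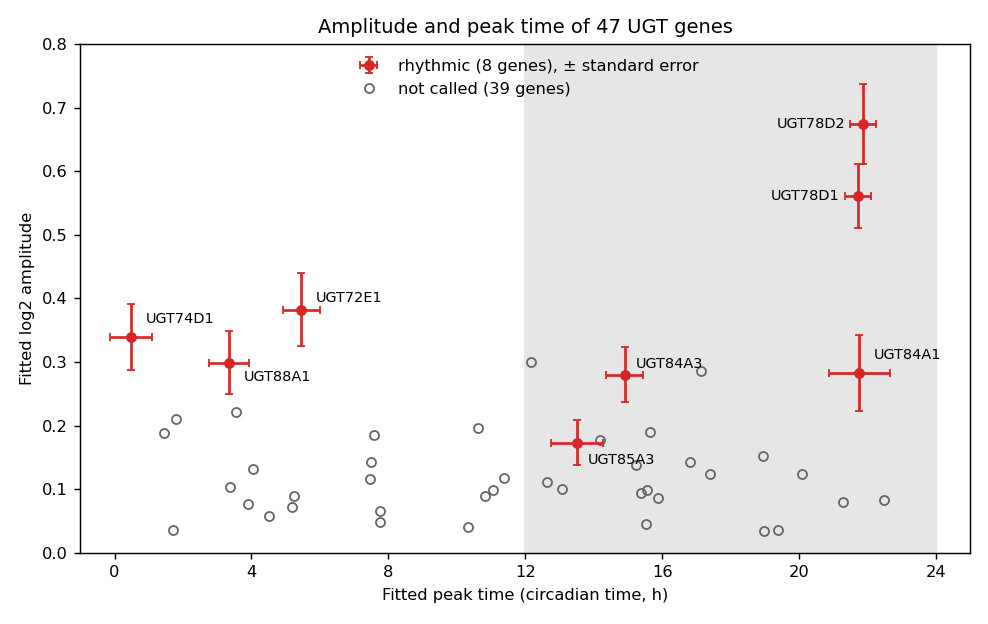
Fitted log2 amplitude against fitted peak time for the 47 UGT genes, with the subjective night shaded and bars of 1 standard error on the 8 rhythmic genes. UGT78D1 and UGT78D2 stand at the top near CT22, and the other 6 rhythmic genes have amplitudes between 0.17 and 0.38.

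Families UGT71, UGT73, UGT76, UGT80 and UGT87, with 26 genes, had no rhythmic member, where 4.66% of all 13264 genes were rhythmic. These families are put together here because they had no call, and at the share of all genes few calls would fall among 26 genes. An unadjusted p below 0.05 was reached by 2 of 9 genes in UGT71, 3 of 7 in UGT73 and 2 of 8 in UGT76. It was also reached by the 1 gene in UGT80 but not by that in UGT87, against 20.7% of all genes. In family UGT71, none of 9 genes passed. UGT71B1 came closest, with intensities of 226, 214, 158, 234, 309 and 234 in the first cycle and 221, 195, 206, 252, 298 and 245 in the second. It was highest at CT16 in both cycles and lowest at 32 h, and did not pass (log2 amplitude 0.29, standard error 0.07, adjusted p = 0.0754). Its chromosomal neighbours UGT71B6 and UGT71B8, whose products glucosylate abscisic acid, had adjusted p values of 0.359 and 0.536, and UGT71C5, which acts on the same hormone, had a log2 amplitude of 0.03 with a range of intensity from 347 to 419.6. UGT71C1 was highest at CT4 in both cycles, at 211 and 248, and did not pass (adjusted p = 0.0899). When only the upper 69% of genes by level were tested, UGT71B1 and UGT71C1 were called (adjusted p = 0.0274 and 0.0369), and UGT71B1 was also called with no trend in the fit and with log2 of intensity plus 32.

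In family UGT76, none of 8 genes passed. UGT76B1, which glucosylates isoleucic acid and salicylic acid, was highest at CT4 in both cycles, at 194 and 216, within a range of 133 to 216 (adjusted p = 0.0980), and it was called when only the upper 69% of genes by level were tested (adjusted p = 0.0409). The cytokinin N-glucosyltransferase genes UGT76C1 and UGT76C2, which lie side by side on chromosome 5, had log2 amplitudes of 0.13 and 0.05 (adjusted p = 0.215 and 0.811). UGT76D1, which acts on dihydroxybenzoic acids, and the 4 UGT76E genes had adjusted p values of 0.271 to 0.838.

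Family UGT73 had 7 genes and no call. UGT73B1 and UGT73B4, whose product can act on xenobiotics, had adjusted p values of 0.0769 and 0.107 and fitted peaks at CT10.6 and CT15.6, and both were called when only the upper 69% of genes by level were tested. UGT73B5, next to UGT73B4 on chromosome 2, did not pass (adjusted p = 0.479), nor did the cytokinin O-glucosyltransferase gene UGT73C1 (adjusted p = 0.256). The sterol glucosyltransferase gene UGT80B1 and UGT87A2, a gene of flowering time, had log2 amplitudes of 0.12 and 0.08 (adjusted p = 0.232 and 0.439).

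By the role of the product, 5 of 9 genes whose products act on flavonoids and phenylpropanoids were rhythmic, 1 of 8 whose products act on hormones, none of 4 listed for defence, not the 1 glucosinolate gene, none of 3 with other roles and 2 of 22 with no role listed, where 17.0% of all 47 UGT genes and 4.66% of all named genes were. The 9 flavonoid and phenylpropanoid genes had a median log2 amplitude of 0.28, the 8 hormone genes one of 0.12, and all named genes one of 0.10. Both groups were read as counts with no test between them, since the grouping was written with earlier results on these arrays known. The 5 rhythmic flavonoid and phenylpropanoid genes include UGT84A1, and the 2 with no role listed include UGT85A3. Both calls were lost with scan day as a block (adjusted p = 0.133 and 0.0874 from limma). No role listed means only that the grouping gave none. A fitted peak-to-trough ratio below 1.2 was found in 25 of the 47 genes. The share of all genes below 1.2 was not counted, but their median log2 amplitude was smaller (0.10 against 0.12 for the 47). Of the 39 that did not pass, 14 had a standard error of the peak time above 2 h, so that their peak times say little.

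Of the 47 genes, 31 lie in 13 runs, in which neighbours are at most 3 protein-coding genes apart in RefSeq's gene order. Of these 31 genes 4 were rhythmic, where 17.0% of all 47 UGT genes and 4.66% of all named genes were. They left 10 runs with no rhythmic gene, 2 runs with 1 and the UGT84A run with 2. With 4 rhythmic genes over 13 runs, most runs have none however the 4 are placed. UGT85A5 passed beside UGT85A3 when the trend was left out of the fit and when all probe sets were fitted. Nearby UGT genes are similar in sequence, and whether their probes also bind each other's transcripts was not tested. None of the 47 probe sets has the ending that marks probes shared between several transcripts.

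No UGT gene passed the test of a steady change over the sampling. The linear trend from 24 h to 68 h passed in none of the 47 genes, where it passed upwards in 0.0151% of all genes and downwards in 0%. An unadjusted p below 0.05 was reached by 7 of the 47 (11% of all genes), with 6 higher at later times (4.95% of all genes) and 1 lower (6.02% of all genes). The lowest adjusted p in limma was 0.363. The fitted change was between -0.21 and 0.20 log2 units per 24 h. All 3 UGT72E genes were among the 6, with slopes of 0.18 (standard error 0.07), 0.20 (standard error 0.08) and 0.12 (standard error 0.05), and adjusted p values of 0.398, 0.380 and 0.421. All arrays of the last 4 times were scanned on a separate day, so scan day and time overlap in part, and no UGT gene passed the test of trend with scan day as a block or on the arrays of scan day 1 alone.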

How the data were processed

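Transcripts were measured on 12 Affymetrix ATH1 arrays, 1 per harvest. The values that the authors deposited are linear intensities in 1 table, with near-equal medians in all arrays. MAS5 (version not stated) is the tool in the submitters' processing notes, while dChip is the one in the methods for expression, and the sources used here do not say which of them produced the table. Of the array records that the authors also deposited, which carry text of other kinds and no expression values, the scan day alone was read. Gene symbols came from the platform annotation held by GEO. Of 13513 probe sets with 1 symbol, 13436 matched RefSeq (assembly TAIR10.1) by gene ID and 48 by locus name, and 13415 named 13264 nuclear genes. Where a gene had several probe sets the one of highest mean was kept, after values below 1 (2 to 12 per array) were set to 1 and log2 was taken of the deposited values. Different probe sets bind with different strength, so the levels of single UGT genes were not set against each other. The ranking of genes by mean level behind the upper 69% carries this limit. Fits used limma 3.58.1 in R 4.3.3, with 8 residual degrees of freedom and Benjamini-Hochberg adjustment over all genes, and were tested on simulated data. No time was replicated, so a p value weighs the fitted wave or trend against the scatter of arrays around the curve. That scatter is moderated over all genes by limma, and no spread between replicates enters it. The members, gene lists and roles were chosen with earlier results of these data known. Genes named with values are all rhythmic members, the 5 with the widest log2 range, those with an unadjusted p below 0.05 whose time of highest value repeated, and members with a listed role. UGT72B3, UGT73B1, UGT84B2, UGT85A2, UGT85A4, UGT85A7 and the UGT76E genes were named beside their relatives after their values were seen. Alternatives were no trend, the upper 69% by level, all probe sets, linear intensities, log2 of intensity plus 32, quantile normalization, scan day as a block, other thresholds, no shared probe sets, a free period, and each time left out. Python 3.11.15, numpy 2.4.6, pandas 2.3.3 and matplotlib 3.10.9 were used.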

Additional observations from a re-analysis of the deposited data

How the results depend on the processing

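The count of rhythmic UGT genes was 8, where 4.66% of all genes were called. It was 13 with only the upper 69% by level tested (11% of those genes) and 3 with the best period from 19 to 29 h (2.16%). At an adjusted p below 0.01 it was 5 (1.81%), and at an unadjusted p below 0.05 it was 21 (20.7%). It was 2 with the 7 arrays of scan day 1 alone (0.686%), chosen after seeing the data. There UGT78D1 and UGT78D2 passed, and the log2 amplitudes of UGT72E1, UGT74D1 and UGT88A1 were 0.38, 0.37 and 0.31. With each time left out the count was 6 to 9, where 2.76% to 4.7% of all genes were called. UGT72E1, UGT74D1, UGT78D1, UGT78D2, UGT84A3 and UGT88A1 passed every time. The same 6 passed with scan day as a block, where 3.08% of all genes did. With the best period, UGT74D1, UGT84A3 and UGT88A1 did not pass (adjusted p = 0.0593, 0.0616 and 0.0899), at log2 amplitudes of 0.34, 0.28 and 0.30, nor did UGT84A1 and UGT85A3 (adjusted p = 0.318 and 0.249). In that fit each p was multiplied by the number of periods tried. For UGT84A3 and UGT88A1 the best period was 24 h, so only this step changed their p before adjustment. The count of UGT genes with a trend was 0 under each alternative it was fitted for, which leaves out the fits with no trend and with a free period, except an unadjusted p below 0.05 (7). The median log2 amplitude of UGT genes was 0.099 to 0.133 over the alternatives it was taken for, against 0.123 in the main fit. It was lowest with log2 of intensity plus 32, where the median of all genes was 0.073. The pathway counts were the same under each alternative, with only 1 or 2 genes tested per list. The labels give no replicate numbers, so no fit had a replicate block, and the cycles were not compared as pairs by circadian time. The number of arrays limits the precision.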
